A study of Homo sapiens with 16 samples.

Results

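AP-1 (activator protein 1) and immediate early genes were examined in human 16HBE bronchial epithelial cells that carry either the wild-type MET receptor or MET lacking exon 14, with and without its ligand HGF. The group held 10 genes: the FOS family genes FOS, FOSB, FOSL1 and FOSL2, the JUN family genes JUN, JUNB and JUND, the related bZIP factor ATF3, the zinc finger factor EGR1, and IER3, an early response gene that does not encode a transcription factor. They were chosen by gene name, and every non-control probe with one of these names was used, which gave 14 probes for 10 genes of the 58201 probes and 42665 gene names on the array. ATF3 had 4 probes, IER3 had 2 and each of the other 8 genes had 1. All 14 probes were well above background on all 16 arrays, so all of them were tested.

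The cells were 16HBE, a non-tumorigenic line made by immortalising bronchial epithelial cells with the SV40 large T antigen. 16HBE-ex14 cells were made with CRISPR/Cas9 by cutting at the exon 14 splice donor of MET, and 1 subclone, clone F, represented them, so that the clone and the edit cannot be told apart. The 4 groups were 16HBE-WT and 16HBE-ex14 cells without HGF and both lines after 24 h of HGF at 20 ng/mL, with 4 arrays per group. Serum was withdrawn for 2 h before stimulation, and the sample annotation used here gives these 2 h for all 4 groups, stimulated or not. The replicates came from cultures 1 week apart, but which array came from which week is not stated in the sources used here. No SD or p-value below reaches beyond these cultures and this clone.

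AP-1 is a dimer of a FOS family and a JUN family protein, or of related bZIP proteins, that binds a short palindromic element in promoters and enhancers. FOS, FOSB, JUN, JUNB, ATF3 and EGR1 are classical immediate early genes, whose transcription starts within minutes of growth factor or stress signalling through MAP kinases and then usually decays. FOSL1, which encodes FRA-1, is induced later and persists while ERK signalling lasts, and its protein is known for driving protease and motility genes in epithelial cells. FOSL2 encodes FRA-2. JUND is the JUN family member that resting cells express, and it restrains proliferation in several cell types. Labelled RNA was hybridised to 1-colour arrays, and each level below is the log2 of a probe's intensity minus the log2 of the 75th percentile of its array, so that a difference of 1 between groups is a change of 2-fold. Levels of different genes are not comparable with each other, because each probe has its own brightness.

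As a check of the cells, all 8 bronchial epithelial markers were well above background on all 16 arrays, while the fibroblast genes COL1A2, COL3A1 and DCN and the endothelial genes PECAM1 and KDR were above it on none. The log2 of the summed epithelial markers ranged from 10.65 to 10.99 in the WT groups and from 10.57 to 10.85 in the ex14 groups. Within this list the basal keratins KRT5 and KRT17 averaged 2.62 and 1.28 in WT cells and -2.26 and -1.41 in ex14 + HGF cells, and the log2 of the summed fibroblast list ranged from -0.87 to 0.05 in WT and from -1.32 to -1.24 in ex14 + HGF cells. The part of these differences in the results below was not tested. The MET probe read between 4.97 and 5.16 in the group means and did not pass the test in any comparison. Its position relative to exon 14 was not examined here, so it is not taken as a check of the edit. HGF itself was not well above background on any array. The 75th percentile of intensity ranged from 139.5 to 262.8 over the arrays. It ran from 156.3 to 213.0 in WT, 139.5 to 191.0 in WT + HGF, 211.1 to 240.5 in ex14 and 201.8 to 262.8 in ex14 + HGF cells. Between 49.0% and 60.3% of probes were well above background, and the highest share was on an ex14 + HGF array.

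The JUND finding rests on a single probe of 60 bases, at hg19 chr19:18391371-18391430 on the minus strand, and its sequence is shown because no other probe measures this gene. The promoters of JUND and EGR1 are shown because they were the only ones with a match, among the 8 of 10 genes found in the RefSeq promoter table, to any of 4 elements through which these factors act or are regulated. The elements were searched on both strands of the 250 bases before the start site: the AP-1 site TGANTCA, the cyclic AMP response element TGACGTCA, the serum response CArG box and the EGR site GCGNGGGCG. Both promoters are from build GRCh38.p14, JUND at chr19:18281623-18281872 on the minus strand and EGR1 at chr5:138465229-138465478 on the plus strand, and capitals mark the matches.
JUND probe: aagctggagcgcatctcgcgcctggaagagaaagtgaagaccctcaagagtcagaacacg
JUND promoter: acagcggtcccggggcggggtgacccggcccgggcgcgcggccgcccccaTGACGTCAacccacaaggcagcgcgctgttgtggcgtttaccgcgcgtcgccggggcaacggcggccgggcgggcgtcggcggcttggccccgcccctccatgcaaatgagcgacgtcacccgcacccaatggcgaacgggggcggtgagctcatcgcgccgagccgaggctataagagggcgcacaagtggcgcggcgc
EGR1 promoter: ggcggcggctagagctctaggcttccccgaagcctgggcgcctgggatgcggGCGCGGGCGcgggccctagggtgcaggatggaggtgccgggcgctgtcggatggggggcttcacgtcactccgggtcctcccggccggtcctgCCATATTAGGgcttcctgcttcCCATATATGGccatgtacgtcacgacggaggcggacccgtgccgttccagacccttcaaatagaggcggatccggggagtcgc
JUND held 1 TGACGTCA element, from -200 to -193 relative to the start site, which 1.65% of 35116 promoters contained. EGR1 held 2 CArG boxes, at -105 to -96 and at -83 to -74, an element present in 1.16% of promoters, and 1 EGR site at -198 to -190, present in 8.41%. No TGANTCA was found in these windows of the 8 genes, against 6.57% of all promoters, and a match or its lack describes these letters only.

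In 16HBE-ex14 cells HGF raised FOSL1 and lowered JUND, and no other member passed the test. FOSL1 rose 1.92-fold and JUND fell 1.55-fold, whereas the genes of the early wave, FOS, FOSB, EGR1 and JUN, had no detectable change at 24 h. A probe was called when limma's Benjamini-Hochberg adjusted p was under 0.05 and its change was over 1.5-fold. In bulk RNA fewer expressing cells and less RNA per cell cannot be told apart. By the rule 2 of 14 member probes (14.3%) were called, 1 higher and 1 lower, beside 2.00% of all 34599 tested probes.

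FOSL1 read 3.52, 3.13, 3.98 and 3.77 in the 4 unstimulated ex14 arrays and 4.40, 4.38, 4.91 and 4.48 with HGF. Every stimulated array was above every unstimulated one, and 8.84% of all tested probes had no overlap in this comparison. The group means were 3.60 ± 0.37 and 4.54 ± 0.25 (SD, n = 4 each), a log2 fold change of 0.94 with a standard error of 0.19 and an adjusted p of 0.0168 by limma. The rise was 1.06 within the first slide and 0.82 within the second. FOSL1 was no longer called when unstimulated replicate 2 was dropped (0.79, adjusted p = 0.0616), when stimulated replicate 3 was dropped (0.82, adjusted p = 0.0661), or when arrays were centred on their median (0.78, adjusted p = 0.0557) or on spiked-in RNA (0.87, adjusted p = 0.0674), or when the ex14 groups were fitted alone (0.94, adjusted p = 0.0799), each by limma.

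JUND read 0.66, 0.82, 0.72 and 1.02 in unstimulated ex14 cells and 0.25, 0.15, 0.22 and 0.09 with HGF. All 4 stimulated arrays lay below all unstimulated arrays, and the scatter was small, with SDs of 0.16 and 0.07. The log2 fold change was -0.63 with a standard error of 0.09 and an adjusted p of 0.00271 by limma, and it was -0.54 and -0.71 within the slides. Its size was near the limit of 1.5-fold, and it fell short of that limit when unstimulated replicate 4 was dropped (-0.56, adjusted p = 0.012) or with another background correction (-0.52, adjusted p = 0.000788).

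FOSL2 was the nearest of the others to a call. It read 1.02, 1.21, 0.67 and 1.39 without HGF and 0.70, 0.41, 0.55 and 0.51 with it, so that the lowest unstimulated array overlapped the highest stimulated one. The log2 fold change was -0.53 with an adjusted p of 0.0838 by limma, and without ex14 replicate 3 it became -0.66 with an adjusted p of 0.0159.

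ATF3, a stress-induced bZIP factor that dimerises with JUN proteins, gave a log2 fold change of -0.84 on its brightest probe, with a 95% confidence interval of -1.61 to -0.06 and an adjusted p of 0.301. Its probes at hg19 chr1:212788502-212788561 and chr1:212792837-212792896 gave -0.65 and -0.67, while the probe at chr1:212792519-212792578 gave 0.11 (adjusted p = 0.722). The last probe lies between the other regions of the gene and also scattered less, with a within-group SD of 0.14 against 0.44 to 0.55 for the other 3. The 2 IER3 probes gave 0.43 and 0.46 (adjusted p = 0.259 and 0.267). JUN had a log2 fold change of -0.30 and JUNB of -0.15.

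For the early genes the intervals were wide. The log2 fold change of FOS was -0.53 with a 95% confidence interval of -1.40 to 0.33, that of FOSB -0.04 with an interval of -1.58 to 1.51, and that of EGR1 -0.11 with an interval of -1.0 to 0.78. A change of 2-fold in either direction lay within the interval of FOSB, so it would not have been detectable with these 4 arrays per group. Over the 10 genes, each by its brightest probe, the median log2 fold change was -0.23 beside 0.06 over all 26368 tested genes. A positive sign was seen for 2 of 10, beside 60.4% of all tested genes. This count is not firm, because the signs of FOSB, EGR1 and JUNB turned in some fits that left out single arrays. FOS, FOSB, JUN, ATF3 and EGR1 also peaked on the same arrays, so their signs are not separate observations.

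**Figure D1:**
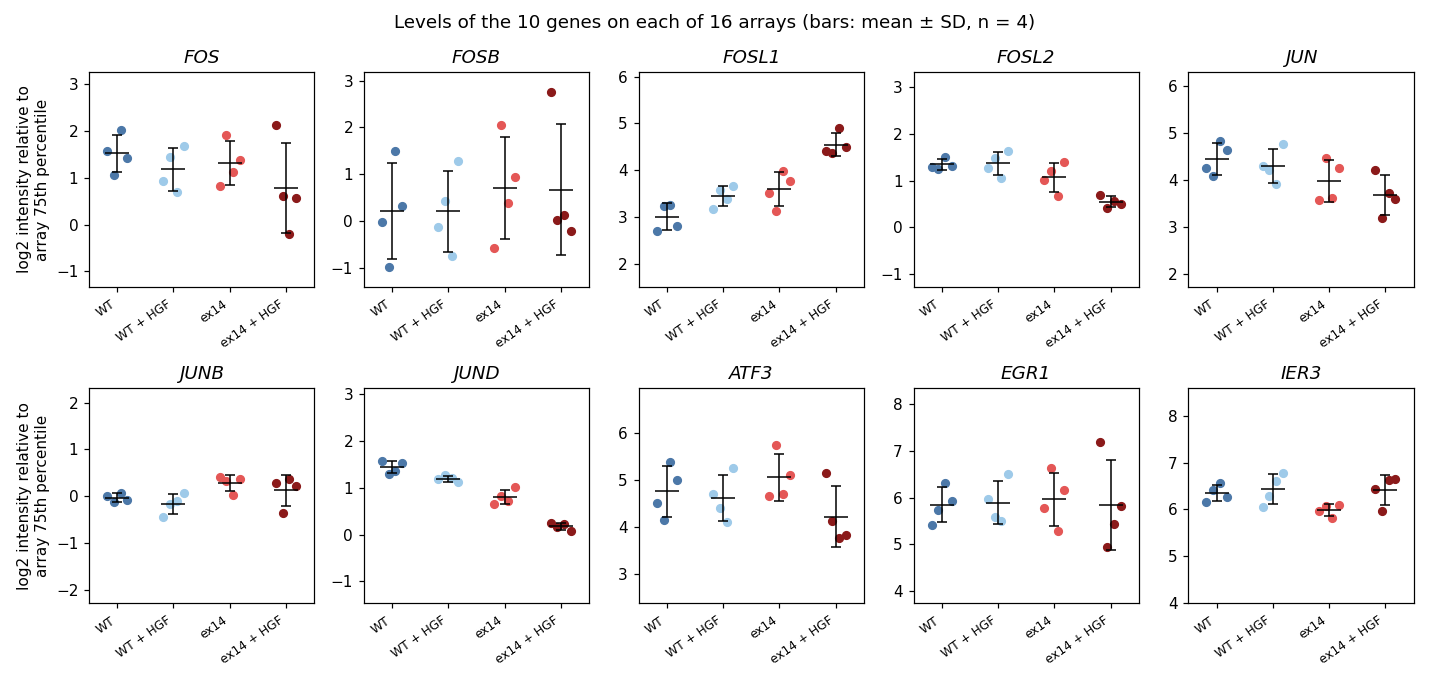
Each panel shows 1 gene by its brightest probe, with the log2 intensity relative to the array's 75th percentile on the vertical axis and the 4 groups on the horizontal axis; points are single arrays in replicate order, bars are mean ± SD (n = 4), and all panels span the same number of log2 units. FOSL1 is highest and JUND and FOSL2 lowest in the ex14 + HGF group, whereas FOSB and EGR1 scatter widely within every group.

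In 16HBE-WT cells HGF changed no member past the test, and the called share of all probes was 0.00%. Across the array no probe of 34599 was called by limma, and 1694 had an unadjusted p under 0.05. Among the 14 member probes 2 had an unadjusted p under 0.05, FOSL1 and JUND. FOSL1 read 2.69, 3.23, 3.26 and 2.82 without HGF and 3.16, 3.57, 3.39 and 3.66 with it, overlapping between groups. The log2 fold change was 0.45 with a 95% confidence interval of 0.03 to 0.86 and an adjusted p of 0.994 by limma. JUND read 1.57, 1.30, 1.36 and 1.53 without HGF and 1.20, 1.27, 1.20 and 1.12 with it, with every stimulated array below every unstimulated one. It was the only member probe without overlap in this comparison, 1 of 14 (7.14%), beside 2.61% of all tested probes. The log2 fold change of JUND was -0.24 with an interval of -0.45 to -0.04 and an adjusted p of 0.95. FOSL2 was level, with a log2 fold change of 0.02 and an interval of -0.30 to 0.34, and its sign depended on the scaling. FOS, JUN, JUNB and ATF3 ranged from -0.34 to -0.13, and EGR1, IER3 and FOSB from -0.0015 to 0.08, with signs that turned under other scalings.

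Whether HGF acted differently in the 2 lines was tested as the difference of the responses. No probe on the array passed (0.00%, 1600 with an unadjusted p under 0.05 by limma), and so no member was shown to respond differently. The differences with an unadjusted p under 0.05 were those of JUND, which was -0.39 on the log2 scale with an interval of -0.67 to -0.10 (adjusted p = 0.897), and of FOSL2, which was -0.55 with an interval of -1.01 to -0.09 (adjusted p = 0.98). For FOSL1 the difference was 0.50 with an interval of -0.09 to 1.09. The responses in the lines were 0.94 and 0.45 for FOSL1, -0.63 and -0.24 for JUND, and -0.53 and 0.02 for FOSL2, ex14 first.

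Without HGF, FOSL1 was higher and JUND lower in 16HBE-ex14 than in 16HBE-WT cells, and these were the only members called, 2 of 14 probes (14.3%) beside 9.40% of all probes. JUND averaged 1.44 ± 0.13 in WT and 0.81 ± 0.16 in ex14 cells (SD, n = 4 each), with all ex14 arrays below all WT arrays. The log2 difference was -0.63 with a standard error of 0.09 and an adjusted p of 0.000364 by limma. FOSL1 averaged 3.0 ± 0.29 in WT cells, 0.60 lower than in ex14 cells, with an adjusted p of 0.0454, and the arrays overlapped. This call was weak: it held in 6 of the 16 fits that each left out 1 array, the adjusted p reached 0.135 without ex14 replicate 3 and 0.131 without WT replicate 1, and the difference was 0.36 on the first slide and 0.84 on the second. FOSL1 was also not called with quantile normalization (adjusted p = 0.0649), without the filter on dim probes (adjusted p = 0.0869) or in a fit of the unstimulated groups alone (adjusted p = 0.107). JUND fell below 1.5-fold with normexp background correction (-0.52), array medians (-0.50) or spiked-in RNA (-0.55).

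JUNB, a JUN family member that often opposes JUN, read from 0.02 to 0.41 in ex14 cells and from -0.14 to 0.07 in WT cells, a log2 difference of 0.31 with an adjusted p of 0.197. IER3, which protects cells from apoptosis, lay between 5.81 and 6.09 in ex14 and between 6.15 and 6.56 in WT cells, with no overlap, and its difference of -0.36 had an adjusted p of 0.178. The second IER3 probe gave -0.34 (adjusted p = 0.244), with overlapping arrays. Non-overlapping arrays were found for 2 of 14 member probes in this comparison (14.3%), fewer than the 21.4% of all tested probes. The other differences were 0.50 for FOSB, 0.30 for ATF3, 0.11 for EGR1, -0.21 for FOS, -0.27 for FOSL2 and -0.47 for JUN, none past the test.

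With HGF in both lines, 3 members separated 16HBE-ex14 from 16HBE-WT cells: FOSL1 was 2.14-fold higher, JUND 2.03-fold lower and FOSL2 1.77-fold lower. These 3 of 14 probes (21.4%) stood beside 10.8% called of all probes, and all 3 calls were kept in all 28 other fits. FOSL1 averaged 3.45 ± 0.22 in WT + HGF and 4.54 ± 0.25 in ex14 + HGF cells (SD, n = 4 each), a log2 difference of 1.10 with a standard error of 0.19 and an adjusted p of 0.00107 by limma. JUND averaged 1.20 ± 0.06 and 0.18 ± 0.07, a difference of -1.02 with a standard error of 0.09 and an adjusted p of 6.02e-06. FOSL2 read 1.28, 1.49, 1.06 and 1.63 in WT + HGF cells, all above the highest ex14 + HGF array at 0.70, and its difference was -0.82 with a standard error of 0.15 and an adjusted p of 0.00142. For all 3 genes the groups did not overlap, which held for 23.9% of all tested probes, and the differences within each slide were alike, 1.02 and 1.17 for FOSL1, -1.03 and -1.01 for JUND and -0.83 and -0.82 for FOSL2.

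JUN was lower by 0.62 on the log2 scale in ex14 + HGF than in WT + HGF cells. Its interval was -1.18 to -0.05 and its adjusted p 0.119, with overlapping arrays, so this did not pass. FOS differed by -0.40, ATF3 by -0.40, FOSB by 0.46 and JUNB by 0.29, and EGR1 and IER3 by -0.04 and -0.01, the last 2 with a sign that turned under other scalings. The least bright ATF3 probe, at chr1:212792519-212792578, had the opposite sign to the other 3, with a difference of 0.28, an interval of 0.04 to 0.51 and an adjusted p of 0.0897.

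Set in order of level, JUND fell step by step over the groups, from 1.44 in WT through 1.20 in WT + HGF and 0.81 in ex14 to 0.18 in ex14 + HGF. Its ranges were 1.30 to 1.57, 1.12 to 1.27, 0.66 to 1.02 and 0.09 to 0.25, so no group overlapped another. Such a full separation of all 4 groups was seen for 65 of the tested probes (0.188%), and for no other member probe. FOSL1 had the opposite order, 3.0, 3.45, 3.60 and 4.54, where WT, WT + HGF and ex14 overlapped their neighbours and ex14 + HGF stood above every other array. FOSL2 was alike in WT (1.34 ± 0.12) and WT + HGF (1.36 ± 0.25), overlapped both at 1.07 ± 0.31 in ex14 cells, and was lowest at 0.54 ± 0.12 in ex14 + HGF cells.

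**Figure D2:**
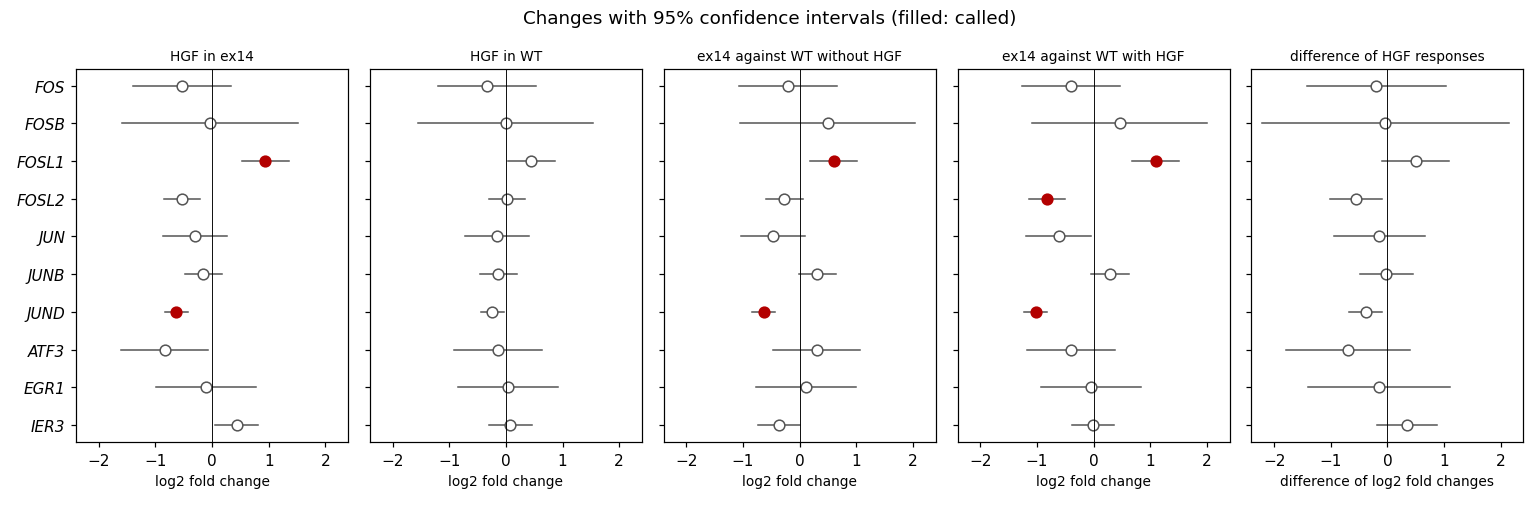
Points are log2 fold changes of the 10 genes (brightest probe) in the 4 comparisons and, in the last panel, the difference of the HGF responses, with 95% confidence intervals as lines and called genes filled. FOSL1 and JUND are filled in 3 panels and FOSL2 in the one for ex14 against WT with HGF, and the intervals of FOSB are the widest.

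The genes whose levels ran closest to JUND over the 16 arrays, after each gene was centred on its own mean, were PLA2G16, RNASET2, HLA-F, MVK and TCEA3. Their root mean square differences from JUND were 0.12 to 0.13 log2 units, the smallest among 26368 genes compared. PLA2G16 averaged 7.72, 7.50, 7.05 and 6.61 in the order used for JUND, and RNASET2 averaged 2.49, 2.23, 1.76 and 1.28.

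Within groups FOS, FOSB, EGR1, ATF3 and JUN varied from array to array more than JUND, and all 5 were highest on the same array of each group. The within-group SD was 1.11 for FOSB, 0.63 for EGR1, 0.62 for FOS, 0.55 for ATF3 and 0.40 for JUN, beside a median of 0.25 over all tested probes and 0.11 for JUND. JUNB, also an immediate early gene, scattered less than that median (0.22) and shared the highest array with FOS in 2 of 4 groups. Of all tested probes, 0.182% had a larger SD than FOSB, 8.46% than EGR1 and 91.8% than JUND. In ex14 + HGF cells FOS read 2.12 on replicate 1 and 0.61, -0.19 and 0.58 on the others. EGR1 read 7.19 on that array and 4.95, 5.43 and 5.83 on the others, and FOSB read 2.75 against 0.01, 0.12 and -0.21.

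The array that was highest for FOS was also highest for FOSB, JUN, ATF3 and EGR1 in each of the 4 groups. It was replicate 3 in WT, replicate 4 in WT + HGF, replicate 2 in ex14 and replicate 1 in ex14 + HGF. FOSB read 1.51, 1.29, 2.06 and 2.75 on these arrays. These 4 arrays lay in different slide rows and different columns. Of all tested probes, 1277 (3.69%) were highest on these same 4 arrays. By their brightest probe 5 of the 10 genes were so, but this count includes FOS, which defined the arrays and so counts by construction. Among 15 other immediate early genes it was 7. FOSL1 and JUND shared the highest array with FOS in 2 groups and 1 group. The part of this scatter in the group comparisons was not tested.

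**Figure D3:**
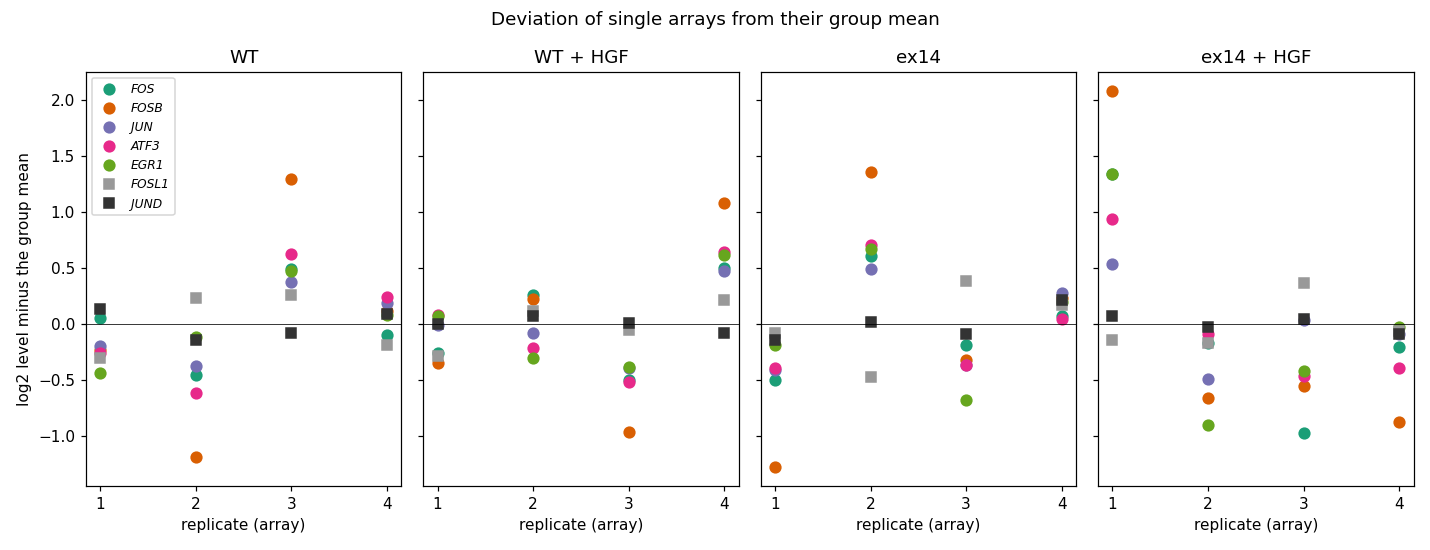
The vertical axis is the log2 level of a gene on 1 array minus its group mean and the horizontal axis the replicate, with 1 panel per group; circles are FOS, FOSB, JUN, ATF3 and EGR1 and squares FOSL1 and JUND. In each panel the 5 circles peak on the same array, up to FOSB at 2.75 (level) in ex14 + HGF replicate 1, while JUND stays near 0.

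Other immediate early genes were counted as a further view of the same class. Of 15 tested, none was called with HGF in ex14 cells or in WT cells, beside 2.11% and 0% of all tested genes. The median log2 fold changes were -0.02 and 0.06. In ex14 against WT cells 1 was higher and 1 lower without HGF, and 2 were higher and 2 lower with HGF, beside 9.40% and 10.8% of all tested probes called in these comparisons. PHLDA1, a growth-factor-induced gene that feeds back on receptor signalling, was higher in ex14 cells by 0.84 on the log2 scale without HGF (adjusted p = 0.00196) and by 1.27 with it (adjusted p = 7.07e-05). BTG2, an antiproliferative gene, was lower by 0.63 and 0.75 (adjusted p = 0.0124 and 0.00351), and CCN1, a secreted matrix protein, was lower by 0.69 with HGF (adjusted p = 0.0173). The BTG2 difference without HGF was not called without WT replicate 3 (-0.54), with normexp background (-0.49), with array medians (adjusted p = 0.065) or with spiked-in RNA (adjusted p = 0.0758), and with HGF it was below 1.5-fold with normexp (-0.58). CCN1 missed the call without WT + HGF replicate 4 (adjusted p = 0.0581) or ex14 + HGF replicate 2 (adjusted p = 0.0571), and with quantile normalization, array medians or spiked-in RNA (adjusted p = 0.0616, 0.0819 and 0.0889). EGR3, a relative of EGR1, was not well above background on any WT + HGF array and was so on 3 of 4 ex14 + HGF arrays. The measured means were -5.21 and -3.73 (adjusted p = 0.0379 by limma). With dim WT + HGF readings raised to the lowest level read well above background on their array, EGR3 was 1.32-fold higher in ex14 + HGF cells. This is not a lower bound, because not every ex14 + HGF array was well above background either. This EGR3 call was weak. It was lost without each single WT + HGF array and without ex14 + HGF replicate 1, 3 or 4 (adjusted p from 0.0565 to 0.112), held in 9 of the 16 fits that each left out 1 array, and was lost in a fit of the stimulated groups alone (adjusted p = 0.0524). Its sign turned with normexp background correction (-0.02).

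Of 12 other bZIP partners that can pair with FOS or JUN proteins, 1 was called lower with HGF in ex14 cells, beside 2.11% of all tested genes called in either direction, and none in WT cells. It was BATF, which forms dimers with JUN proteins that lack a transactivation domain of the FOS kind. BATF averaged -2.10 ± 0.36 in ex14 and -2.99 ± 0.13 in ex14 + HGF cells (SD, n = 4 each), a log2 fold change of -0.89 with an adjusted p of 0.00819 by limma and no overlap. Its difference from WT + HGF cells was -1.09 (adjusted p = 0.000246). The related BATF2 was higher in ex14 than in WT cells by 0.71 without HGF (adjusted p = 0.00663) and by 1.08 with it (adjusted p = 0.000287), and BATF3 by 0.73 with HGF (adjusted p = 0.0133), or 0.54 and below 1.5-fold without WT + HGF replicate 1. CREM, a cyclic AMP response factor, was lower in ex14 cells by 0.80 and 0.72 (adjusted p = 0.00204 and 0.00354). With another background correction (normexp) all of these calls except that of BATF2 with HGF fell below 1.5-fold, and the change of BATF with HGF in ex14 cells was -0.32 (adjusted p = 0.0445). In fits of the compared groups alone BATF with HGF in ex14 cells and BATF3 were not called (adjusted p = 0.0712 and 0.0623).

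Of 14 kinases and serum response factors that act upstream of FOS and EGR1, 1 was called higher with HGF in ex14 cells and none in WT cells. Of all tested genes 1.13% were called higher with HGF in ex14 cells. In ex14 against WT cells 1 was higher without HGF, and 2 were higher and 1 lower with it, beside 9.40% and 10.8% of all tested probes called. The gene called with HGF was ELK3, an ETS factor that pairs with SRF at serum response elements, with a log2 fold change of 0.91 and an adjusted p of 0.0183. Its call was lost with array medians (0.75, adjusted p = 0.0647), with spiked-in RNA (0.84, adjusted p = 0.0576), in a fit of the ex14 groups alone (0.91, adjusted p = 0.0998) and without ex14 replicate 2 or 4 or ex14 + HGF replicate 3 or 4, with adjusted p from 0.0581 to 0.0736. MAPK8, which encodes JNK1, the kinase of JUN, was higher in ex14 than in WT cells by 0.64 without HGF and by 0.84 with it (adjusted p = 0.00752 and 0.000994). MAPK3, which encodes ERK1, was lower by 0.60 in ex14 + HGF cells (adjusted p = 0.000747). MAPK8 fell below 1.5-fold in cells without HGF when WT replicate 2 (0.50) or ex14 replicate 3 (0.54) was dropped, and MAPK3 without WT + HGF replicate 4 or ex14 + HGF replicate 4 (-0.56 each). With normexp background all 3 were below 1.5-fold, MAPK8 at 0.35 without HGF and 0.52 with it and MAPK3 at -0.48, and MAPK3 was so with array medians (-0.50) and spiked-in RNA (-0.56) too. The arrays measure transcripts and not kinase activity.

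Among 14 genes described as AP-1 targets 13 were tested, and 5 were called higher with HGF in ex14 cells and none lower. Of all 26368 tested genes 1.13% were called higher in this comparison. The median log2 fold change of the 13 was 0.53, beside 0.06 over all tested genes, and 13 of 13 were positive, beside 60.4% of all tested genes. These counts describe a list chosen with earlier results of these arrays known. MMP1, the interstitial collagenase, was well above background on 1 of 4 arrays without HGF and on all 4 with it, and its means were -4.65 ± 0.52 and -0.31 ± 0.62, a log2 fold change of 4.34 with an adjusted p of 0.000155 by limma. The size rests on dim readings: with normexp background correction it was 1.78. MMP3, stromelysin 1, rose by 2.47 (adjusted p = 0.00691, well above background on 3 of 4 unstimulated arrays), or by 1.03 with normexp, and MMP9, a gelatinase, by 1.44 (adjusted p = 0.0112). CD44, the hyaluronan receptor, rose by 0.80 (adjusted p = 0.00498) and HMGA1, a chromatin protein, by 0.70 (adjusted p = 0.0205). In a fit of the ex14 groups alone the calls of MMP3, CD44 and HMGA1 were lost (adjusted p = 0.0615, 0.058 and 0.104). HMGA1 was also not called with array medians (0.54, adjusted p = 0.127), with spiked-in RNA, or without ex14 replicate 1, 2 or 4 or ex14 + HGF replicate 3 or 4, where the adjusted p ran from 0.0544 to 0.0802. PLAU, the urokinase gene, did not pass with HGF in ex14 cells but was higher in ex14 than in WT cells by 0.76 without HGF and by 1.17 with it (adjusted p = 0.00367 and 0.00013).

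In WT cells none of the 13 targets was called, with a median of 0.17, and no target passed the test of the difference of responses. In ex14 against WT cells 1 was higher without HGF, beside 4.51% of all tested genes called higher. With HGF 3 were higher, namely MMP1, MMP3 and PLAU, beside 5.3% of all tested genes, and none was lower in either comparison. With the slide as a block HBEGF, a ligand of the EGF receptor, and MMP9 were called with HGF too, which made it 5 of 13. Their adjusted p by limma was 0.0443 and 0.0496, against 0.0848 and 0.0645 without the block. The share of all genes called higher with that block is not given here. HBEGF was named after its values were seen.

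**Figure D4:**
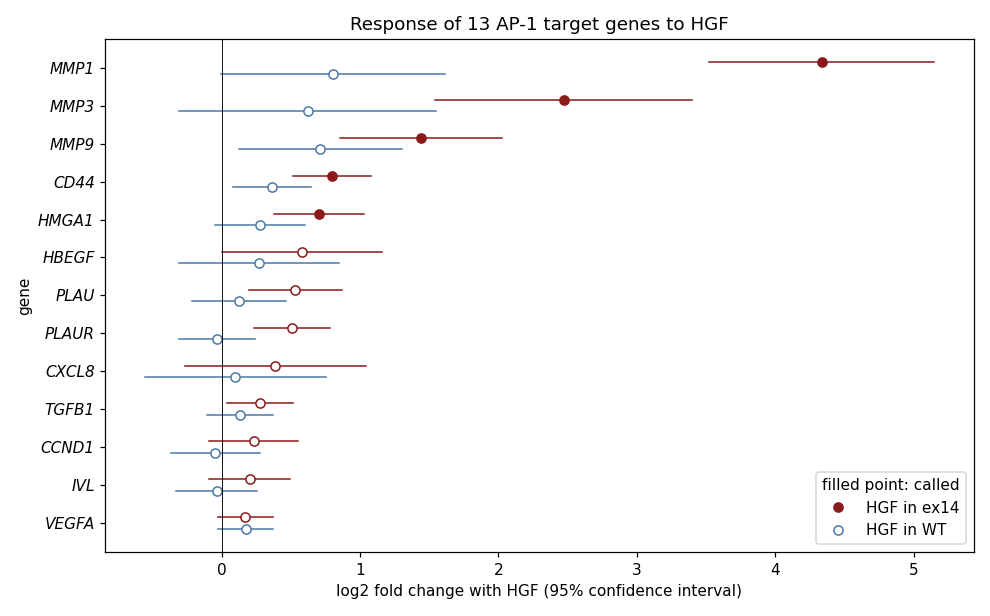
Log2 fold changes with HGF and 95% confidence intervals for 13 AP-1 target genes, dark red for 16HBE-ex14 and blue for 16HBE-WT cells, filled where called. The 5 filled points are all of 16HBE-ex14 cells, from HMGA1 at 0.70 and CD44 at 0.80 up to MMP1, whose size of 4.34 rests on unstimulated arrays of which 1 of 4 was well above background, and all 13 points of 16HBE-ex14 cells lie right of 0.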

How the data were processed

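The 16 arrays were 1-colour Agilent arrays with probes of 60 bases. Per the file headers, each intensity is the processed signal of Agilent Feature Extraction 10.7.3.1, background-subtracted and detrended by the authors and not scaled between arrays, and the deposited table of all samples held the same values for all 62976 spots. Here the log2 of each intensity minus the log2 of its array's 75th percentile was taken, spots of 1 probe were averaged, and a probe entered the tests if 4 or more of the 16 arrays read it well above background (34599 of 58201). R 4.3.3 with limma 3.58.1 fitted 1 mean per group over all arrays, with 5 comparisons, eBayes and Benjamini-Hochberg adjustment over all tested probes. Calls needed an adjusted p under 0.05 together with a change over 1.5-fold. The script was tested on simulated data.

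The precision of array values is limited by the number of arrays, 4 per group. A gene is represented by its brightest probe, and other probes are given where they disagree. Every member was reported, and from each list of related genes at most 6 were named, those with the largest changes among the genes called with HGF in ex14 cells or between the lines, plus the 5 genes closest to the member with the smallest adjusted p for HGF in ex14 cells, and HBEGF. The 10 members and all lists were chosen with earlier results of these data known. From the list of AP-1 targets, 2 genes are not reported here. Array positions are hg19, and promoters are from the RefSeq table of GRCh38.p14, which held 8 of the 10 genes. FOSL1 and IER3 were not in that table. Alternatives were another background correction (normexp, offset 50), 3 other scalings, 2 other filters, outlier spots kept, slide and slide row as blocks, only the compared groups, another prior, no fold limit and each array left out.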

Additional observations from a re-analysis of the deposited data

Results flagged for a closer look

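FOSB in ex14 + HGF replicate 1 read 2.75, while the other 3 arrays of the group lay between -0.21 and 0.12. The gap to the nearest of the others was 0.889 of the group's whole range, above Dixon's 95% critical value for 4 samples. This was the only one of 40 sets of 4 arrays tested, 10 genes in 4 groups, to pass, and chance alone marks about 1 set in 20. FOS, EGR1, ATF3 and JUN were highest on the same array. Without it the log2 fold change of FOSB with HGF in ex14 cells was -0.73 in place of -0.04.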

How the results depend on the processing

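FOSL1, FOSL2 and JUND kept the direction of their called changes in all 28 alternatives, and the 3 calls between the lines with HGF were kept in each of them. With HGF in ex14 cells 2 member probes were called. The count was 1 with normexp background (FOSL1), with array medians, spiked-in RNA or the compared groups only (JUND each time), and 1 to 3 when single arrays were left out, FOSL2 being the third without ex14 replicate 3. Between the lines without HGF the count of 2 became 1 with normexp, array medians or spiked-in RNA (FOSL1), with quantile normalization, no filter or the compared groups only (JUND), and 1 to 2 when single arrays were left out. The cause was not tested. Array medians shifted all changes with HGF in ex14 cells by -0.16, with HGF in WT cells by -0.12 and between the lines without HGF by 0.14 log2 units.

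Signs turned only for values that passed no test in any fit, and for EGR3. Between the lines with HGF, EGR1 was 0.041 with normexp and 0.054 with array medians, IER3 was 0.070, 0.085 and, with spiked-in RNA, 0.028, and EGR3 was -0.020 with normexp. With HGF in WT cells, array medians gave FOSL2 -0.10, EGR1 -0.075 and IER3 -0.037, spiked-in RNA gave FOSL2 -0.0044, and quantile normalization gave FOSB 0.0036. With single arrays left out, the log2 fold change with HGF in ex14 cells ranged from -0.73 to 0.41 for FOSB, -0.24 to 0.010 for JUNB and -0.56 to 0.19 for EGR1. With HGF in WT cells it ranged from -0.40 to 0.43 for FOSB, -0.069 to 0.12 for FOSL2, -0.35 to 0.068 for ATF3, -0.16 to 0.20 for EGR1 and -0.035 to 0.21 for IER3. Between the lines it ranged from -0.11 to 0.34 for EGR1 without HGF, and with HGF from -0.23 to 0.82 for FOSB, -0.49 to 0.26 for EGR1 and -0.14 to 0.14 for IER3.

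The replicate numbers follow slide and slide row, and whether they also follow the culture week is not stated in the sources used here. Deviations from the group means correlated between arrays of 1 slide row at 0.03 to 0.32, and at 0.04 to 0.41 between rows of 1 slide, so the numbers were not taken as pairs. Between the slides the correlations ran from -0.36 to 0.03, so arrays of 1 slide tended to deviate together, and the main fit holds no slide term. With the slide as a block the same member probes were called in each comparison. With HGF in ex14 cells the adjusted p by limma was then 0.00712 for FOSL1 and 0.00215 for JUND. With the replicate block the counts of called member probes stayed 2 with HGF in ex14 cells, 0 in WT cells, 2 and 3 between the lines and 0 for the difference of responses, and the call of EGR3 was lost (adjusted p = 0.0502).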
